A study of Meriones unguiculatus and Mus musculus with 2 samples.

Results

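The genes described are 8 inflammatory CC chemokines and 1 of their receptors, Ccl2, Ccl3, Ccl4, Ccl5, Ccl7, Ccl8, Ccl11, Ccl12 and Ccr2, taken by gene name from a deposited table of 41214 mouse gene entries, where each had 1 entry. RNA was sequenced from skin taken 3 days after a wound was made, in the Mongolian gerbil (Meriones unguiculatus) and in the outbred ICR mouse stock. Each species had 1 library, the labels do not say how many animals went into it, and no unwounded skin was analysed here. The differences below therefore carry neither an error nor a p-value, since there are no replicates, and hold for these 2 libraries alone. Values are FPKM, sequenced fragments scaled to transcript length and library size, so levels can be compared between genes within a library. The ICR value was listed for all 9 genes. A gerbil value was listed for 7, and each of those is read here as the level of an assembled gerbil sequence matched to the mouse gene. The table gives every match an expectation value, the number of equally good matches that chance would give, so a smaller value is a stronger match. No counts were used, and depth is unknown.

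CC chemokines are small secreted proteins named for a pair of adjacent cysteines near the start of the mature chain. They bind to heparan sulphate on cell surfaces and matrix, and guide leukocytes by engaging receptors coupled to inhibitory G proteins. In a skin wound, Ccl2 and its relatives draw Ccr2-bearing monocytes out of the blood, and these become macrophages of the wound bed. Macrophages and neutrophils themselves make Ccl3 and Ccl4, which act on other leukocytes.

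The coding letters around the cysteine pair show how far these ligands, all of 1 family, differ from each other in mouse. No gerbil sequence was examined, so they do not show how the gerbil matches were told apart. Each stretch below holds 57 bases of mouse coding sequence from the GENCODE transcripts (GRCm38), written 5′ to 3′ on the gene's own strand. The capitals mark the adjacent cysteine codons, which lay in exon 2 in all 8 genes.
Ccl2, chr11:82036491-82036547, plus strand: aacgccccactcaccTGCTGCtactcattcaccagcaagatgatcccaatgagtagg
Ccl7, chr11:82046523-82046579, plus strand: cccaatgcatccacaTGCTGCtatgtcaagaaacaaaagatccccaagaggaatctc
Ccl8, chr11:82116041-82116097, plus strand: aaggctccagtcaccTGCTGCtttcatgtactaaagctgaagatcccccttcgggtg
Ccl12, chr11:82102619-82102675, plus strand: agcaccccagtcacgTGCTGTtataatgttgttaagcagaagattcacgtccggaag
Ccl3, chr11:83648616-83648672, minus strand: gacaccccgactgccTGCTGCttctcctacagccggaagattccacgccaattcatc
Ccl4, chr11:83663467-83663523, plus strand: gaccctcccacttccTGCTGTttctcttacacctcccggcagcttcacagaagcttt
Ccl5, chr11:83529206-83529262, minus strand: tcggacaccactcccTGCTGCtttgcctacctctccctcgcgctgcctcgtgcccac
Ccl11, chr11:82061681-82061737, plus strand: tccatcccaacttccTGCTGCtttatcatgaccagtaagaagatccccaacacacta

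Over whole mouse coding sequences, Ccl8 and Ccl12 were identical at 70.5% of 288 aligned bases, and Ccl3 and Ccl4 at 69.6% of 270. Ccl2 and Ccl7 were identical at 68.0% of 291 bases. Ccl2 was closest to Ccl11, at 68.4% of 291 bases. Among the 8 ligands the longest identical run was 21 bases, shared by Ccl11 and Ccl12, followed by 20 shared by Ccl2 and Ccl11, and the longest shared by Ccl3 and Ccl4 was 9. None of the 4 gerbil values of Ccl2, Ccl7, Ccl3 and Ccl4 was listed for any other symbol in the table.

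Among the ligands of Ccr2, Ccl2 was higher in gerbil and Ccl7 was close in both libraries. The ICR level of Ccl2, the main monocyte attractant (chromosome 11, 82035571 to 82037453), was 28.6 FPKM and its gerbil level 213, on a match with an expectation value of 0. Its log2 difference, computed on FPKM + 1 as gerbil minus ICR, was 2.85. That direction held under the trimmed mean scaling and the scaling to listed ribosomal and housekeeping genes, and turned to -0.25 when gerbil was scaled to ribosomal protein genes alone. Position within each library does not depend on that choice: Ccl2 lay above 80.7% of measured protein-coding symbols in ICR and above 97.2% in gerbil. An antisense gene, Gm17268, overlaps Ccl2 in the table and was listed at 0 in ICR; whether reads were counted by strand is not given in the sources used here.

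Ccl7, which attracts monocytes through Ccr2 and other leukocytes through Ccr1 and Ccr3, had an ICR level of 57.2 FPKM and a gerbil level of 75.03. The log2 difference was 0.39, with an expectation value of 0, and -2.63 under the ribosomal protein scaling. Its position barely moved, from above 90.6% to above 92.4% of coding symbols. Within ICR, Ccl7 was 2.002 times the level of Ccl2, whereas within gerbil Ccl2 was 2.83 times the level of Ccl7. These within-library ratios are free of any scaling between species, so the order of the neighbouring pair was opposite in the 2 libraries.

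Ccl8 and Ccl12 had no gerbil value. Ccl8, which in mouse acts on Ccr8 of T cells, was at 81.9 FPKM in ICR, the highest of the monocyte chemoattractant protein genes in that library. Ccl12, a mouse ligand of Ccr2, was at 14.0 FPKM. Among protein-coding entries at 10 FPKM or more in ICR, 5.52% had no gerbil value (349 of 6327), and 2 of the 8 genes here at that level did. A missing match is not a level of 0, so the gerbil order of these ligands is known only for Ccl2 and Ccl7.

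**Figure D1:**
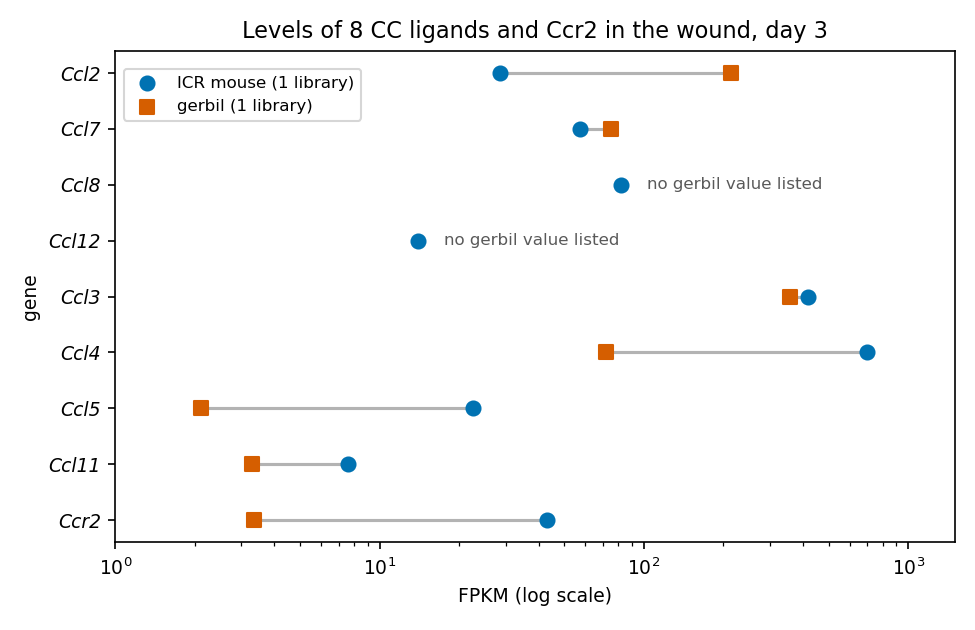
FPKM on a log axis for each gene in the single ICR library (circles) and the single gerbil library (squares), with a line joining the values of 1 gene. Ccl2 moves from 28.6 in ICR to 213 in gerbil, Ccl4 from 700.0 to 71.8 and Ccr2 from 43.2 to 3.34, while Ccl3 and Ccl7 stay close together; Ccl2 and Ccl7 would lie lower in gerbil under the ribosomal protein scaling.

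The leukocyte-made ligands Ccl3 and Ccl4, which lie 14.7 kb apart by their starts, did not differ by the same amount. Ccl3, or macrophage inflammatory protein 1 alpha (chromosome 11, 83647844 to 83649355), stood at 416 FPKM in ICR against 357 in gerbil, a log2 difference of -0.22. It was the highest of the 7 genes in gerbil and lay above 98.9% of coding symbols in ICR and 98.3% in gerbil. Ccl4, macrophage inflammatory protein 1 beta, stood at 700.0 FPKM in ICR against 71.8 in gerbil, a log2 difference of -3.27 or 9.64-fold on FPKM + 1. Ccl4 ranked 95 among 21310 protein-coding entries in ICR.

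The matches of the pair were equally strong, with expectation values of 3e-175 for Ccl3 and 2e-175 for Ccl4 on mouse transcripts of 766 and 660 bases. Within ICR, Ccl4 was 1.68 times Ccl3, while within gerbil Ccl3 was 4.97 times Ccl4. Both genes were lower in gerbil under every scaling tried. With Ccl3 as the reference instead, Ccl4 stood lower in gerbil and Ccl2 higher, since Ccl2 was 0.0686 times Ccl3 in ICR and 0.596 times Ccl3 in gerbil.

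Ccl5, known as RANTES, is made by T cells and platelets among others and attracts T cells and monocytes. It stood at 22.5 FPKM in ICR against 2.11 in gerbil, a log2 difference of -2.92, and its position went from above 76.0% to above 20.4% of coding symbols. The match was weak, with an expectation value of 1e-29 on a transcript of 532 bases. Ccl11, eotaxin, which attracts eosinophils through Ccr3, was the lowest of the 9 genes in ICR. It was at 7.57 FPKM there and 3.28 in gerbil, a log2 difference of -1.002, and its match was the weakest of the 7, at 6e-14 on a transcript of 1082 bases.

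Among protein-coding symbols expressed in ICR, weak matches went with lower gerbil values, which are given here beside those of Ccl5 and Ccl11. Among protein-coding symbols at 1 FPKM or more in ICR, 9800 had an expectation value of 0, with a median log2 difference of 0.03, and 6.82% of them were at least 4-fold higher in ICR. Of the 308 symbols matched above 1e-30, the class that holds Ccl5 and Ccl11, 50.3% were at least 4-fold higher in ICR, and the median was -2.03. Ccl11 lay above that median and Ccl5 below it, both within the quartiles of -3.58 and -0.39. With 5 FPKM or more required in ICR, 69.8% of 212 symbols in that class were at least 4-fold higher in ICR, the quartiles were -4.25 and -1.83, and Ccl11 lay above them. The floor was set on the ICR value alone, which also enters the difference. Raising it from 1 to 5 FPKM lowered the median of every class, from 0.03 to -0.12 at an expectation value of 0 and from -2.03 to -2.91 above 1e-30. The part of match strength in the values of these genes was not tested. Ccr2, Ccl2 and Ccl7 were in the class at 0, where Ccl2 lay above the upper quartile of 0.66 and Ccr2 below the lower quartile of -0.70.

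**Figure D2:**
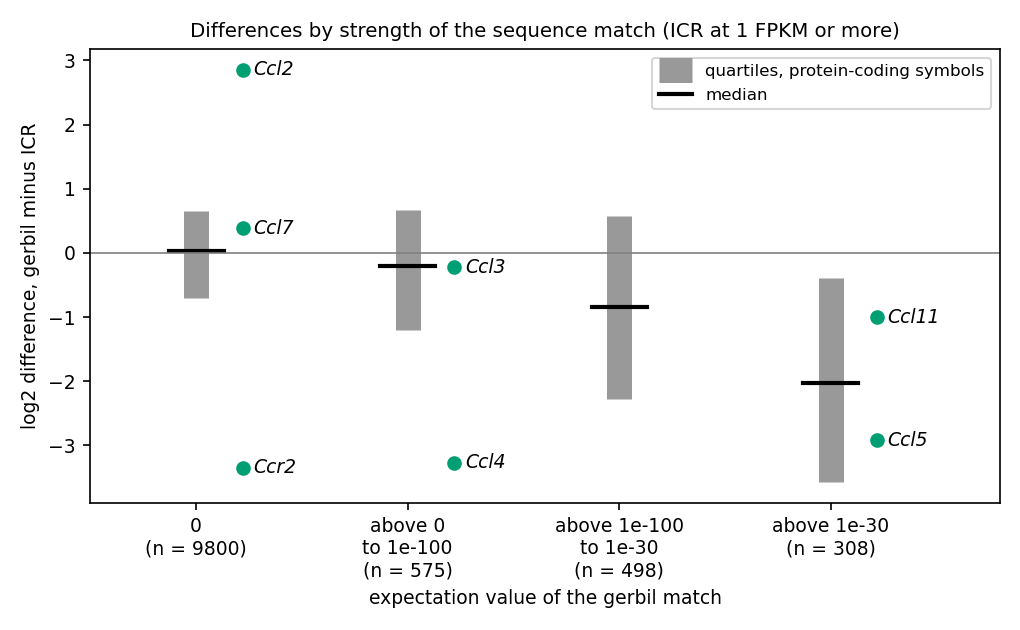
Log2 difference (gerbil minus ICR, FPKM + 1) by expectation value of the gerbil match, for protein-coding symbols at 1 FPKM or more in ICR; grey bars are quartiles, black lines medians, and green points the 7 genes with both values. The median falls from 0.03 at an expectation value of 0 to -2.03 above 1e-30, where Ccl5 and Ccl11 sit, while Ccl2 and Ccr2 lie outside the quartiles of the strongest class; Ccl2 and Ccl7 fall below 0 under the ribosomal protein scaling.

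Ccr2, the receptor that lets monocytes leave the bone marrow and enter tissue (chromosome 9, 124101950 to 124113557), stood at 43.2 FPKM in ICR against 3.34 in gerbil. The log2 difference of -3.35, or 10.2-fold on FPKM + 1, was the largest in size among the 7 genes, although Ccl4 differed more with a pseudocount of 5 FPKM or the ribosomal protein scaling, and the match had an expectation value of 0. Its position went from above 87.1% of coding symbols in ICR to above 31.3% in gerbil. As reported, the gene went the other way from its ligand, but under the ribosomal protein scaling both were lower in gerbil (Ccr2 at -5.01, Ccl2 at -0.25). Ccl2 was 0.662 times Ccr2 in ICR and 63.7 times Ccr2 in gerbil, and these within-library ratios do not depend on the scaling between species.

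Ccr2 has related receptor genes near it on chromosome 9, and how fragments or assembled sequences were divided among them is uncertain. Ccr1, a receptor of Ccl3 and Ccl5, stood at 95.7 FPKM in ICR against 31.8 in gerbil, and its gerbil value was also listed for its near copy Ccr1l1.

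Of the 7 genes with both values, 2 were higher in gerbil and 5 higher in ICR, with a median log2 difference of -1.002. The same median was 0.87 over 20089 measured symbols and 0.30 over 14054 protein-coding ones, where measured means at least 1 FPKM in at least 1 library. With 1 FPKM or more required in both libraries, which all 7 genes meet, the median over symbols was 0.071. At least 4-fold higher in gerbil was 1 gene, Ccl2, against 25.9% of all measured symbols and 9.71% of the coding ones. At least 4-fold higher in ICR were 3 genes, Ccl4, Ccl5 and Ccr2, against 5.56% of all and 7.42% of coding symbols. With a pseudocount of 5 FPKM the count was 2, since Ccl5 was then at -1.95. The list of 7 genes is too short to be set apart from these shares, and no test was made. The gerbil values of Ccl5, Ccl11 and Ccr2 were each listed for other symbols too, as nearly all values under 10 FPKM are: 27 of 11143 such values belonged to a single symbol. Gerbil values were listed to 2 decimals at most, so values this low are often equal between unrelated genes. Ccl5, for instance, had the same value as Aldh1a7 and Amn. An equal value at this level does not show a shared sequence.

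A change of scale moves all genes together, and 1 of the 3 tried changed directions. The trimmed mean of log ratios lowered gerbil by 0.11 on the log2 scale (a shift of -0.11), and the listed ribosomal and housekeeping genes gave a shift of -0.28. Neither of these changed a direction. All 78 measured protein-coding ribosomal protein genes gave a shift of -3.16, under which every one of the 7 genes was lower in gerbil. The gerbil value of 77 of those 78 genes was listed for other symbols as well, as was that of 11 of the 15 listed ribosomal and housekeeping genes. Under the ribosomal protein scaling Ccl2 still stood highest, at -0.25, and Ccl4 lowest, at -6.28.

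**Figure D3:**
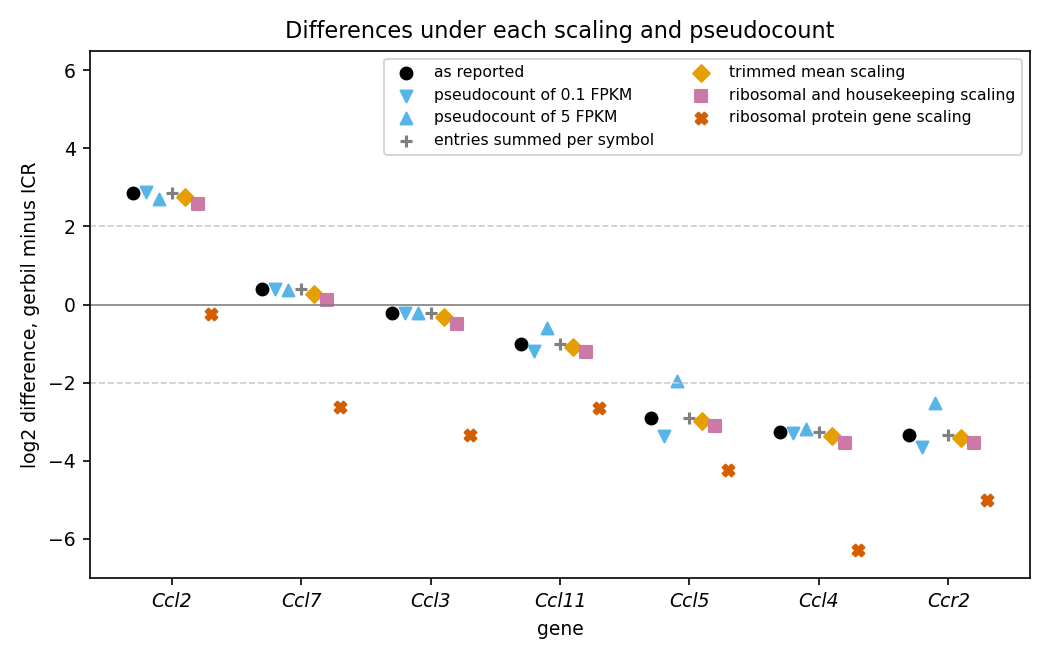
Log2 difference (gerbil minus ICR) of each of the 7 genes with both values, under the reported setting, other pseudocounts, summed entries and other scalings; dashed lines mark 4-fold. Ccl2 stays above 2 in all settings but the ribosomal protein gene scaling, where it is -0.25 and Ccl7 is -2.63, and the other 5 genes stay below 0 in all.

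The make-up of the ligand pool differed within each library. The 6 ligands with both values summed to 1232 FPKM in ICR and 722 in gerbil, and Ccl8 and Ccl12, which have no gerbil value, added a further 95.8 in ICR. Ccl4 made up 56.8% of the summed level in ICR and 9.94% in gerbil. Ccl2 made up 2.32% and 29.5%. Ccl3 made up 33.8% in ICR and 49.5% in gerbil, where it led the pool as Ccl4 did in ICR. In FPKM order, the ICR library ran Ccl4, Ccl3, Ccl8, Ccl7, Ccr2, Ccl2, Ccl5, Ccl12 and Ccl11. The gerbil library ran Ccl3, Ccl2, Ccl7, Ccl4, Ccr2, Ccl11 and Ccl5. With no replicates, neighbours in these orders cannot be told apart, which applies most to Ccl7 and Ccl4 (75.03 and 71.8) and to Ccr2 and Ccl11 (3.34 and 3.28) in gerbil.

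**Figure D4:**
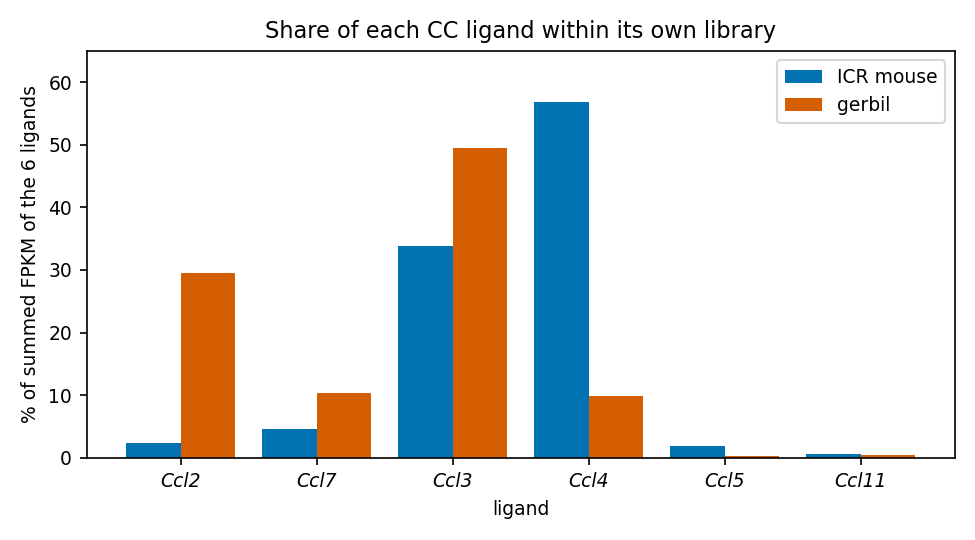
Share of the summed FPKM of the 6 ligands with both values, by ligand, in ICR (blue bars) and gerbil (orange bars), 1 library each. Ccl4 holds 56.8% in ICR and 9.94% in gerbil, and Ccl2 holds 2.32% and 29.5%; shares within a library do not depend on the scaling between species.

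All 8 ligand genes lie on mouse chromosome 11 in a pair of groups. Ccl2, Ccl7, Ccl11, Ccl12 and Ccl8 span 81.2 kb, and after a gap of 1409 kb Ccl5, Ccl9, Ccl6, Ccl3 and Ccl4 span 139 kb. In the second group every gene had both values and was lower in gerbil under each scaling tried for Ccl3, Ccl4 and Ccl5. Ccl9 and Ccl6, CC ligands of myeloid cells that act through Ccr1, were at 113 and 647 FPKM in ICR and at 5.85 and 193 in gerbil. The first group held both genes higher in gerbil, Ccl2 and Ccl7, together with Ccl11 and the unmatched Ccl12 and Ccl8.

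**Figure D5:**
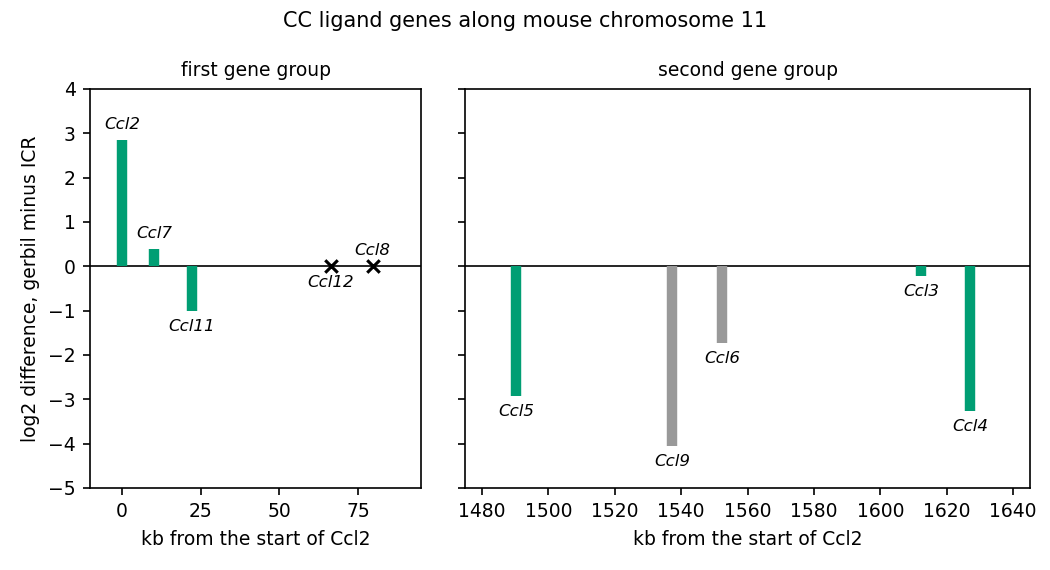
Log2 difference (gerbil minus ICR) of CC ligand genes against distance from the start of Ccl2 on mouse chromosome 11, in kb, as bars for the genes described (green) and their neighbours Ccl9 and Ccl6 (grey); crosses mark Ccl12 and Ccl8, which have no gerbil value. Ccl2 at 2.85 and Ccl7 at 0.39 stand above 0, and turn negative under the ribosomal protein scaling, while all 5 genes of the second group stand below 0.

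The remaining CC ligands and receptors were mostly low or unmatched. Of 13 other CC ligands, 9 were measured, 5 higher in gerbil and 4 higher in ICR, with a median log2 difference of 0.09. At least 4-fold differences were seen for Ccl21a on the gerbil side (listed at 0 in ICR, 14.0 FPKM in gerbil) and for Ccl9 and Ccl27a on the ICR side. The shares over all measured symbols were 25.9% on the gerbil side and 5.56% on the ICR side, and over coding ones 9.71% and 7.42%. Ccl27a, a keratinocyte ligand of skin-homing T cells, was at 5.23 FPKM in ICR but at 0 in the gerbil list, and Ccl28, a mucosal ligand, was at 0.144 and 2.75. Of 12 other CC and atypical receptors, 4 were measured, 2 higher in gerbil and 2 in ICR, and 0 passed 4-fold in either direction; their median was -0.053.

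Among these receptors Ackr1, which binds chemokines without signalling, had 2.76 FPKM in ICR and 3.00 in gerbil. Ccr9 was at 1.43 and 1.12, and Ccr10, the receptor of Ccl27a and Ccl28, at 0.224 and 1.18. A gerbil value was missing for 7, among them Ccrl2 (69.003 FPKM in ICR), the dendritic cell receptor Ccr7 (4.44) and the scavenging receptors Ackr2 (1.54) and Ackr4 (1.14). Ccr3, the receptor of Ccl11, was at 0.400 FPKM in ICR and also had no gerbil value.

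Genes that carry the receptor signal split evenly. Of 14, 7 were higher in gerbil and 7 in ICR, 2 past 4-fold on each side, and the median log2 difference was 0.05. Past 4-fold on the gerbil side were 25.9% of all measured symbols and 9.71% of coding ones, and on the ICR side 5.56% and 7.42%. So short a list cannot be set apart from these shares. Gnai2 and Gnai3, the inhibitory G protein subunits, were at 182 and 121 FPKM in ICR and at 207 and 149 in gerbil. Past 4-fold on the gerbil side were Vav1, an exchange factor of leukocytes (21.7 and 120 FPKM), and Rgs1, which dampens G protein signals (3.71 and 18.3). On the ICR side were Gnb1, at 218 and 1.45 on a match of 4e-80, and Plcb2, at 3.796 and listed at 0.

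Of 14 genes for cytokines and NF-kappaB factors that induce these ligands, 10 were higher in gerbil and 4 in ICR, with 2 past 4-fold on each side and a median of 0.53. Among coding symbols 9.71% were past 4-fold on the gerbil side and 7.42% on the ICR side, and among all measured symbols 25.9% and 5.56%. Il6 and Tlr4, the receptor for lipopolysaccharide, were past 4-fold on the gerbil side, Tlr4 at 9.70 FPKM in ICR and 99.6 in gerbil. Tnf and Nfkb2 were past it on the ICR side, Nfkb2 at 24.6 and 2.60. Nfkbia, the inhibitor that NF-kappaB itself induces, was nearly level at 175 and 177 FPKM, and Tnfrsf1a, a receptor of tumour necrosis factor, was at 108 and 130. Under the ribosomal protein scaling 2 of these 14 genes were higher in gerbil, and 0 of the 14 signalling genes, 0 of the 4 other receptors and 2 of the 9 other ligands. The listed ribosomal and housekeeping genes as the scale left 8, 5, 1 and 4 in the same order.

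Markers of the cells that make or follow these ligands are given as summed FPKM over measured genes, first in ICR and then in gerbil. In bulk tissue, fewer cells of a type and less RNA per cell cannot be told apart. Of 12 monocyte and macrophage markers 9 were measured, at 1595 and 1878 in sum, 4 higher in gerbil and 5 in ICR; Ly6c2, the mark of inflammatory monocytes that carry Ccr2, was at 15.2 and 0.80, a gerbil value also listed for 19 other symbols, and Mertk was listed at 0 in gerbil. Past 4-fold on the gerbil side were Itgam (71.5 and 797, a shared gerbil value) and Cd163 (10.3 and 140). Itgam alone held 797 of the gerbil sum of 1878, and the median log2 difference over the 9 markers was -0.74. Cd14 was at 1332 and 784, and Lyz2, at 1717 in ICR, had no gerbil value. Of 10 T and NK cell markers 7 were measured, at 9.51 and 50.7, all 7 higher in gerbil, whereas Ccl5 was lower; Cd3g was at 2.47 and 4.21 and Gzma, at 3.02 in ICR, had no gerbil value.

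Eosinophil markers, 3 of 6 measured, summed to 0.662 and 14.7, with Epx at 0 in ICR and Siglec5 at 0.575 and 7.14, whereas Ccl11 was lower in gerbil. All 3 gerbil values were under 10 FPKM and listed for other symbols too. Of the 3 markers 2 were at least 4-fold higher in gerbil, as were 25.9% of all measured symbols and 9.71% of the coding ones. Ear2, at 0.639 in ICR, had no gerbil value. Neutrophil markers, 5 of 9 measured, summed to 133 and 95.9, without S100a8 (3242 in ICR) and S100a9 (4550). Mast cell markers, 3 of 8 measured, summed to 281 and 7.44, of which Hdc was 278 in ICR and 0.79 in gerbil. The other 2, Tpsab1 (2.39 and 5.56) and Kit (0.528 and 1.09), were higher in gerbil, and Cma1 (10.1 in ICR) was unmatched. Endothelial markers, 5 of 6 measured, summed to 20.5 and 34.3, with Pecam1 at 10.7 and 21.9, and Emcn (3.86 in ICR) unmatched.

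The labels name the tissue dermis, and epidermal genes were abundant in both libraries. All 7 keratinocyte markers were measured and summed to 23478 and 49839 FPKM, although 3 were higher in gerbil and 4 in ICR. The gerbil sum holds 11793 for Krt5 and again for Krt6a, which share that value, and 18471 for Krt14, which was listed at 0 in ICR. Krt17 was at 4984 and 2909, and Krt6a was at 7820 in ICR. All 7 fibroblast markers were measured and summed to 3459 and 1533, with 2 higher in gerbil and 5 in ICR. Col3a1 was at 1794 and 1.37 on a match of 9e-14, and without it the sums were 1664 and 1532. Col1a1 was at 567 and 203, and Col1a2 at 502 and 1079. The part of cell make-up in the chemokine values was not tested.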

How the data were processed

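Per the file headers, the authors deposited FPKM for ICR and, measured after assembly, for gerbil. Each gerbil value has an expectation value, a score of match strength, per the file headers. Cufflinks 2.2.1, RSEM 1.2.19, STAR 2.4.0b, CASAVA and GRCm38.p2 stand in the submitters' processing notes with no role. Which assembler and search program served is not given in the sources used here. Assembly and matching can move gerbil values of related genes. Groups came from the sample titles.

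Differences are log2(FPKM + 1), gerbil minus ICR, which understates low genes. A symbol was measured with both values and 1 FPKM or more in 1 library; of several entries the one with the highest mean stood for a symbol. With 1 library per species a 4-fold size rule replaced tests, and the code was tested on simulated data. Other pseudocounts, floors, scalings, a 2-fold rule, summed entries and subsets by shared value were tried. The ribosomal protein scaling and the subset by expectation value were chosen after the data were examined.

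The genes and lists were chosen with earlier results of these data known. Named besides the 9 genes were, per pathway list, the 3 highest in ICR and the 2 largest differences each way. Receptors at 1 FPKM or more in ICR and the 2 highest markers per cell type were named too. Named after their values were seen were Ccr3, Ly6c2, Epx, Mertk, Itgam, Cd163, Col1a2, Tpsab1, Kit, Krt5 and Krt14. So were Nkg7, Klrk1, Gm17268 and the Ccr1 and Ccl21 copies. Values of Il6, Tnf and Il1b are not repeated, and 1 receptor that the lists take in is not reported here. Coding sequences (GENCODE M21 on GRCm38, longest per gene, the stop codon left out) were aligned globally with Biopython 1.88, and identity was counted over aligned bases. Python 3.11.15, numpy 2.4.6 and pandas 2.3.3 were used.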

Additional observations from a re-analysis of the deposited data

How the results depend on the processing

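No paired analysis was possible because there was 1 library a species, and none could be left out. The median log2 difference over the 7 genes, -1.002 as reported, was -1.18 with a pseudocount of 0.1 FPKM, -0.60 with 5, -1.08 under the trimmed mean scaling, -1.21 under the ribosomal and housekeeping scaling and -3.35 under the ribosomal protein scaling. It was -0.22 for the 5 genes matched at 1e-100 or less. For the 4 genes that shared their gerbil value with no symbol it was 0.082, and 1 of them was at least 4-fold higher in ICR. That subset left out Ccl5, Ccl11 and Ccr2, the genes with the lowest gerbil values (2.11, 3.28 and 3.34 FPKM). It was thus in effect chosen by gerbil level, and its change of sign is not a separate result. The ribosomal protein scaling left 0 genes at least 4-fold higher in gerbil and 6 in ICR, and reversed Ccl2 (-0.25) and Ccl7 (-2.63). Of 42 single-gene values, those 2 reversed, 31 moved in size and 9 stayed within rounding. Those that stayed were Ccl3 under the other pseudocounts and all values from summed entries, which could not change with 1 entry a gene. A change of scale has to move every gene, so this tally is no measure of stability. Except for the subsets, which hold fewer genes by construction, the cause of the changes was not tested. Depth is unknown, so no limit of detection is given for values near 0.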

Other observations

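Mouse copies of a CC chemokine gene and of a CC receptor gene carried 1 gerbil value each time. All 5 entries of Ccl21a, Ccl21b and Ccl21c, ligands of Ccr7 that guide dendritic cells to lymph nodes, were listed at 0 FPKM in ICR and at 14.0 FPKM in gerbil. Their expectation values were 0 or 2e-128. Ccr1l1, a copy of Ccr1, was at 0.0363 FPKM in ICR and carried the gerbil value of Ccr1, 31.8 FPKM. The sharing was not limited to copies. The gerbil value of Ccl21a was listed for 8 other symbols, Ccl21b and Ccl21c among them, and that of Ccr1 for 2, Ccr1l1 among them. Values listed to 2 decimals can also be equal through rounding.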
